A study of Mus musculus with 12 samples.

Results

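The 76 genes described here encode the proteins of the cytosolic ribosome, as measured in the pituitary gland of adult male mice. They were chosen by name alone: every gene symbol of the form Rpl or Rps plus a number, with or without a final a, x or y, and the genes Rpsa, Rplp0, Rplp1 and Rplp2. Pseudogenes, paralogs whose symbol ends in l and the S6 kinase genes were left out. The rule found 76 of the 18497 named genes in the table, 46 of the large subunit and 30 of the small subunit, and all 76 annotated mouse symbols that fit the rule were present. The rule itself uses no measured value, but the family was picked with earlier results of these data known.

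RNA was sequenced from 12 whole pituitary glands, 1 library per gland, after removal of ribosomal RNA. All mice were wild-type F1 males of the cross given as C57BL/6Jx129S1/SvlmJ, harvested as adults, and all had been microinjected as zygotes and carried by CD1 recipient dams. In the vehicle group (6 glands) the zygote received nuclease-free water, and in the mimic group (6 glands) it received a stabilised mimic of the microRNA let-7f-5p in that same water, at a concentration named stress-relevant in the labels. The labels give neither an exact age, nor litters, nor a sequencing batch, so p-values measure the spread between these glands, some of which may be littermates. The mimic was given once, to the zygote, and its level in the adult glands was not measured in the table used here. The comparison asks whether that early exposure left a trace in the adult gland, here in the genes of the protein-making machinery.

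A ribosome joins a small subunit, which reads the messenger RNA, to a large subunit, which forms the peptide bond and holds the tunnel through which the new protein leaves. Most ribosomal proteins are needed in equal numbers per particle, and cells that secrete protein hormones, such as those of the anterior pituitary, need many ribosomes. In mammals the mRNAs of these proteins begin with a run of pyrimidines, the terminal oligopyrimidine or TOP motif, through which mTOR and the RNA-binding protein LARP1 control their translation together. That control acts on translation, which RNA sequencing does not measure.

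The start of the mRNA is the sequence feature for which this family is known, so it is shown first. RefSeq start windows (GRCm38.p6, 250 bases before to 50 after the annotated start) were found for 56 of the 76 genes. A pyrimidine tract, defined as C followed by at least 7 more C or T on the transcribed sense strand and beginning between 20 bases before and 30 after the start, was present in 34 of 56 windows (60.7%). It was present in 16.5% of all 27025 windows of that length and in 16.8% of the 12597 windows of genes in the table. In the lines below the tract is in capitals, with 30 bases before the annotated start and 30 from it onward. The first 7 genes carry a tract at or near the start, and the last 4 do not.
Rps6: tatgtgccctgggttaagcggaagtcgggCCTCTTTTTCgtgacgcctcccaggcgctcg
Rps10: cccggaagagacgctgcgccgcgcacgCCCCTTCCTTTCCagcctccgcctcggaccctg
Rps27: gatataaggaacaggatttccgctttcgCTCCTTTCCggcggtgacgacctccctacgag
Rplp2: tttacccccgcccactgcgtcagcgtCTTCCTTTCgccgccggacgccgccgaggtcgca
Rpl28: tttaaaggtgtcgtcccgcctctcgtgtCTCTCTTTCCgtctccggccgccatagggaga
Rpl35: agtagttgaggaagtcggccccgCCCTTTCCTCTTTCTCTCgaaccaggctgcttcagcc
Rpl13a: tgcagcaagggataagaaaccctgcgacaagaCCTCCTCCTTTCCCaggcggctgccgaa
Rps16: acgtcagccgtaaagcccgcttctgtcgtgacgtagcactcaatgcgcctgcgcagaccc
Rps4x: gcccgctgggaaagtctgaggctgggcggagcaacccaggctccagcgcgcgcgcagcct
Rpl10: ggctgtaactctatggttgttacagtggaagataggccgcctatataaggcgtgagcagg
Rpl41: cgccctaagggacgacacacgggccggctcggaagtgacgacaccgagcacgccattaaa

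These windows lie at chr4:86857338-86857397 (minus strand) for Rps6, chr17:27635215-27635274 (minus) for Rps10, chr3:90213619-90213678 (minus) for Rps27, chr7:141447621-141447680 (plus) for Rplp2, chr7:4792935-4792994 (plus) for Rpl28, chr2:39005102-39005161 (minus) for Rpl35 and chr7:45128716-45128775 (minus) for Rpl13a. Those without a tract lie at chr7:28350659-28350718 (plus) for Rps16, chrX:102189362-102189421 (minus) for Rps4x, chrX:74270786-74270845 (plus) for Rpl10 and chr10:128549139-128549198 (minus) for Rpl41. An annotated start can be some bases off the start used in the gland, so no match says only that these letters are not in this window. In the full windows, on both strands and allowing motifs to overlap, the ETS-type motif CCGGAAG was found in 39.3% of the 56 genes and in 15.3% of windows of genes in the table. The YY1-type motif AANATGGC was found in 17.9% against 7.74%. The GC box GGGCGG (58.9% against 59.2%), TATAAA (8.93% against 8.61%) and the E-box CACGTG (8.93% against 9.34%) stood at nearly the share of the table's genes.

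The other sequence that bears on the design is that of the injected microRNA, shown with its seed, bases 2 to 8, in capitals. The mimic's sequence in the labels was the same as mature mmu-let-7f-5p in RefSeq, which is encoded at chr13:48537889-48537910 (minus strand) and at chrX:151912353-151912374 (plus strand) of GRCm38.p6.
let-7f-5p: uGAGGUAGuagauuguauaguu

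Members of the family rarely held a match to this seed (CTACCTC) in the 3′ UTR: 1 of the 75 genes with an annotated 3′ UTR (1.33%), against 1282 of 15130 genes of the table (8.47%). Their 3′ UTRs were short, with a median of 56 bases against 881. When the longest of equally ranked transcripts was taken in place of the shortest, the count was 2 of 76 (2.63%, against 9.43%).

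The values are read counts that the authors had normalised for library size, and the reads recovered from them summed to 26378308 to 37061136 per library. The tissue label was checked by hormone and lineage genes. All 11 markers of anterior pituitary endocrine cells were detected in every library, and growth hormone mRNA (Gh) alone held 7.79% to 12.8% of a library. Detection of these markers does not show that the lobes were sampled evenly. The 8 posterior lobe markers held 0.00563% to 0.0733% of the counts in vehicle and 0.0262% to 0.0397% in mimic glands. Their mean log2 level was low in vehicle 1 (-1.65), vehicle 4 (-0.95) and vehicle 6 (-1.63). The cause was not tested. The libraries vehicle 3 and vehicle 4 stood above the other 10 in the genes described here, so results are given with and without the first pair. No library was a copy of another. In whole glands, fewer cells of a type and less RNA per cell cannot be told apart.

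The 76 genes together held between 1.98% and 2.71% of the summed normalised counts of a library. In vehicle glands the share was lowest in vehicle 2 (2.04%), had a median of 2.30% and was highest in vehicle 3 (2.71%), followed by vehicle 4 (2.60%). In mimic glands it ran from 1.98% in mimic 4, with a median of 2.13%, to 2.42% in mimic 2. The groups overlapped over most of their range. The means were 2.35% ± 0.255 in vehicle and 2.18% ± 0.164 in mimic glands (n = 6 each, SD), a difference of -0.171 percentage points. These SDs describe single glands and are not the error of the difference, which was not tested. Without vehicle 3 and vehicle 4 the difference was -0.021 percentage points.

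**Figure D1:**
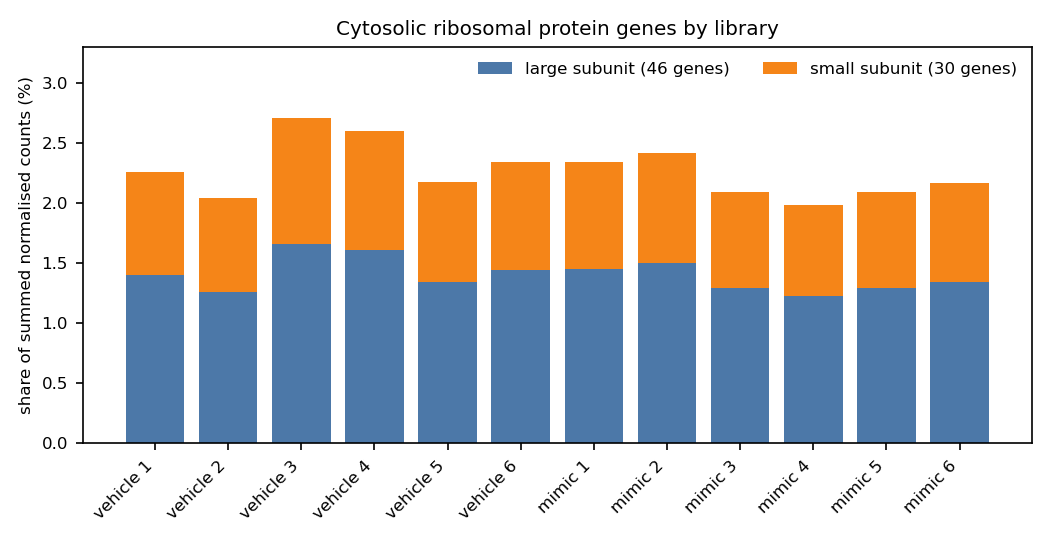
Share of each library's summed normalised counts (percent, vertical axis) taken by the 46 large-subunit genes (blue) and the 30 small-subunit genes (orange), stacked, 1 bar per library. Vehicle 3 (2.71%) and vehicle 4 (2.60%) stand above the other 10 libraries, which lie between 1.98% and 2.42%.

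On the log2 scale the joint level, the mean of log2(normalised count + 1) over the 76 genes relative to its mean over all libraries, weighs each gene equally. It was 0.307 in vehicle 3, 0.276 in vehicle 4 and -0.218 in vehicle 2, while the other 9 libraries lay between -0.147 and 0.073. Within the mimic group, mimic 1 and mimic 2 (0.073 and 0.072) stood above mimic 3 to mimic 6 (-0.147, -0.134, -0.091 and -0.106). The mean was 0.055 ± 0.205 in vehicle and -0.055 ± 0.101 in mimic glands (n = 6 each, SD).

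Nearly the whole family took part in these differences between libraries. All 76 genes stood above their own 12-library mean in vehicle 3 and all 76 in vehicle 4, and none did in vehicle 2. In mimic 3 and mimic 6 only 1 gene did, and in mimic 4 and mimic 5 only 4 did, while in mimic 1 and mimic 2 there were 62 and 70. Vehicle 3 was the highest of the 12 libraries for 44 genes and vehicle 4 for 29, and both together took the top 2 places for 62. Vehicle 2 was the lowest library for 51 genes.

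**Figure D2:**
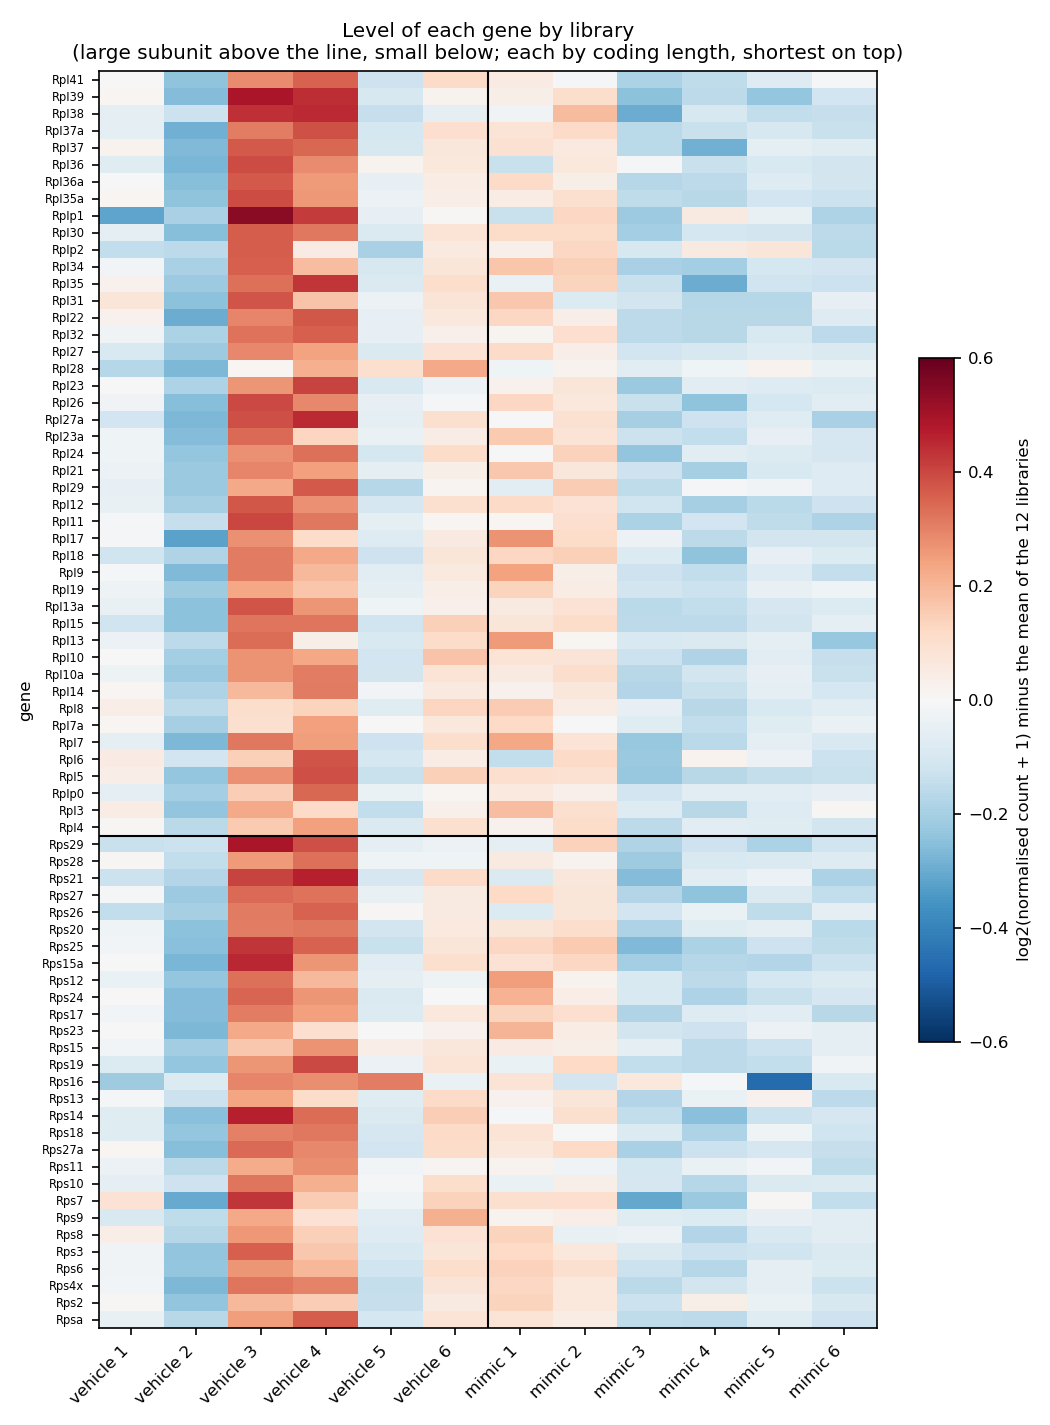
Level of 74 of the 76 genes (rows, large subunit above the line and small below, each ordered by coding length) in each of the 12 libraries (columns). Colour gives log2(normalised count + 1) minus that gene's mean over the 12 libraries, from blue (lower) to red (higher). Every gene drawn lies above its mean in vehicle 3 and vehicle 4 (red) and below it in vehicle 2 (blue). The shade is faint for some, such as Rpl28 in vehicle 3 and Rplp2 in vehicle 4.

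The large and the small subunit moved together. The 46 large-subunit genes held 1.45% ± 0.155 of the counts in vehicle and 1.35% ± 0.103 in mimic glands, and the 30 small-subunit genes held 0.902% ± 0.0998 and 0.834% ± 0.0617 (n = 6 each, SD). The mean log2 level of the large subunit minus that of the small subunit lay between -0.082 and -0.041 in the 12 libraries, a range of 0.041, while the joint level ranged over 0.525. This difference was -0.067 ± 0.013 in vehicle and -0.057 ± 0.011 in mimic glands, and the groups overlapped. It is a difference of mean log2 levels that are not per length, so its sign says nothing of the number of subunits. The distance between the groups was 0.01, and 0.013 without vehicle 3 and vehicle 4.

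No gene of the family passed the test between mimic and vehicle glands. The test was limma-trend fitted to every gene with at least 10 normalised counts in at least 6 libraries, which all 76 members met, with the Benjamini-Hochberg adjusted p taken over all 18390 genes and a threshold of 0.05. It called 0 of 76 members and 0 of all genes (0.0% in each direction), and the limma adjusted p of the members lay between 0.976 and 0.995. At an unadjusted p under 0.05 there was 1 member, against 879 of all genes (4.78%), or 458 in the lower direction (2.49%), so the family's share was no higher than the background. edgeR's quasi-likelihood test on recovered reads called 0 members and 0 of all genes (0.0%), with 2 members and 4.72% of all genes at an unadjusted p under 0.05. DESeq2 called 0 members and 0.0544% of all genes, with 2 members and 5.04% of all genes at that unadjusted p.

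The fold changes were small and nearly all of one sign. Of the 76 log2 fold changes 75 were negative, that is lower in mimic glands, against 50.2% of all genes tested, and the median was -0.12 (0.922-fold) against a median of -0.001 over all genes. The 46 large-subunit genes had a median of -0.118 with 45 negative, and the 30 small-subunit genes had a median of -0.118 with all 30 negative. Single values ran from -0.20 to 0.01 with a standard error between 0.066 and 0.132. The shared sign is 1 observation and not 76, because the genes vary together from library to library. Without vehicle 3 and vehicle 4, the 2 libraries that stand apart, the median was 0.003, with 36 of 76 negative. Those 2 were picked for their high level in these genes, so their removal raises the median by construction and cannot test the sign. Without vehicle 2, the lowest vehicle library, the median was -0.172, with 76 negative. Without vehicle 3 alone it was -0.063 and without vehicle 4 alone -0.068, each with 70 negative.

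The intervals, which take the glands as independent, show how far a member could differ. The 95% confidence interval stayed inside a 1.5-fold difference, higher or lower, for all 76 members, against 77.7% of all genes. All genes include many of low level. The 4705 other genes at least as high as the lowest member had a median standard error of 0.073, against 0.092 for the members. The lowest bound of any member was -0.46 on the log2 scale, for Rpl39, and the highest was 0.20, for Rplp2. For 75 members the interval held 0. For no member were the groups free of overlap, against 0.12% of all genes.

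**Figure D3:**
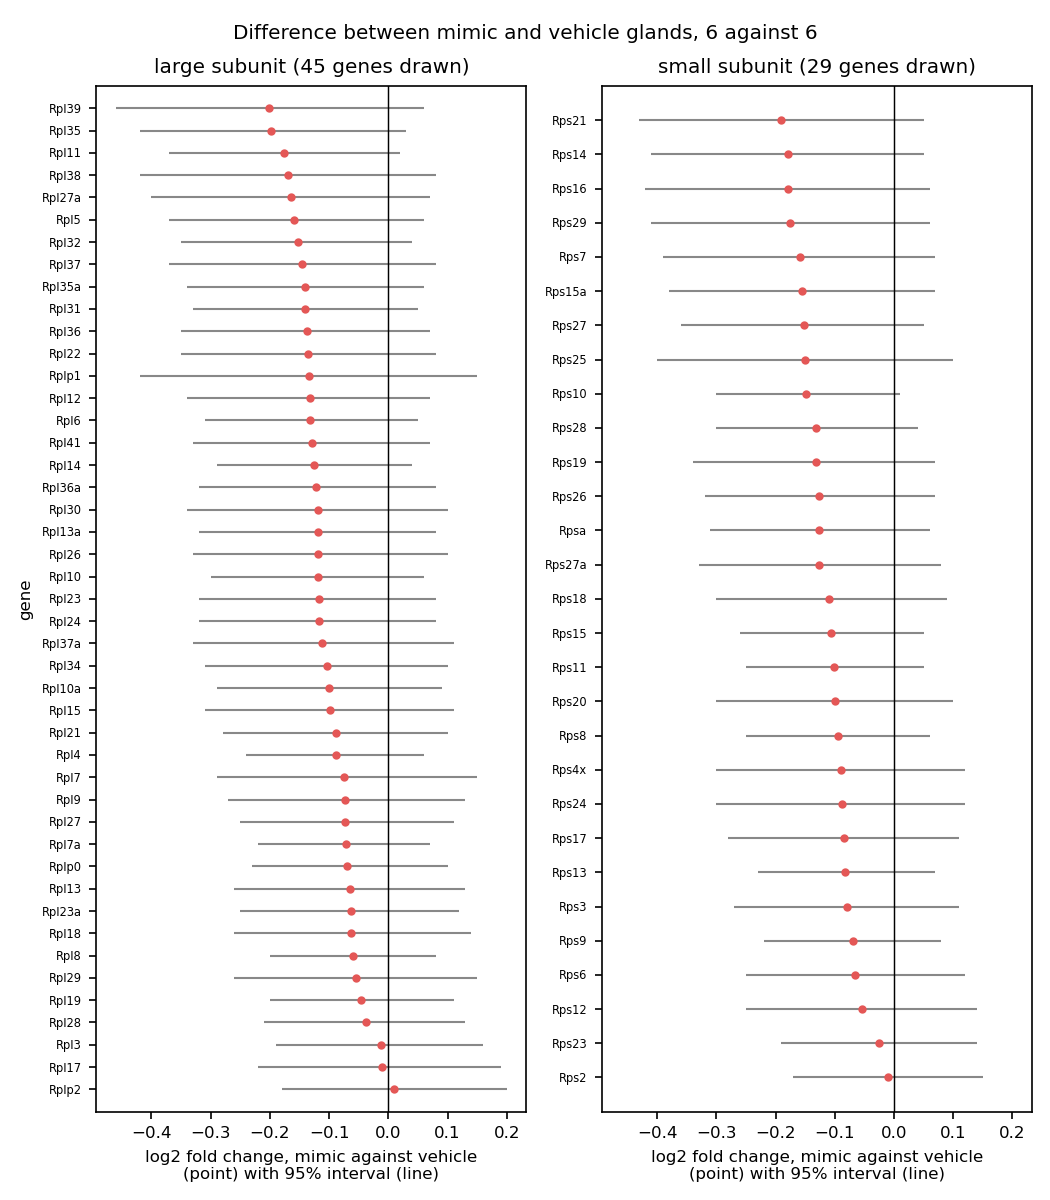
Log2 fold change of mimic against vehicle glands (points) with its 95% interval from limma (lines) for large-subunit (left) and small-subunit genes (right), 74 of the 76, n = 6 against 6. All points but that of Rplp2 lie left of 0, between -0.20 and 0.01, and the intervals drawn cross 0.

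Among small-subunit genes, values are given first for those of small p, none of which passed. Rps10, whose protein is marked with ubiquitin when ribosomes collide, ranged from 5468 to 7438 normalised counts in vehicle (median 6154) and from 5291 to 6101 in mimic glands (median 5618), with a log2 fold change of -0.15 (limma unadjusted p 0.0571, SE 0.07). Rps21, a short protein of the small subunit, ranged from 3799 to 5927 (median 4321) and from 3589 to 4496 (median 4065), with a log2 fold change of -0.19 (SE 0.11). In Rps21 the 2 highest values, 5679 and 5927, were those of vehicle 3 and vehicle 4, and the rest of the vehicle range lay close to that of the mimic glands.

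Other small-subunit genes with known further roles gave values of the same kind. Rps6, the protein that S6 kinase phosphorylates downstream of mTOR, ranged from 15755 to 22253 in vehicle glands (median 19077) and from 16449 to 20343 in mimic glands (median 17658), with a log2 fold change of -0.07 (95% interval -0.25 to 0.12). Rpsa, also known as the laminin receptor precursor, ranged from 15280 to 22026 (median 17395) and from 15380 to 18181 (median 16012), with a log2 fold change of -0.13. In both genes the lowest vehicle library was a little below the lowest mimic library, and the highest vehicle libraries again were vehicle 3 or vehicle 4. Rps27a, made as a fusion with ubiquitin, ranged from 7393 to 11176 (median 9216) and from 7717 to 9572 (median 8155), at -0.13. Rps4x, which lies on the X chromosome, ranged from 14034 to 21147 (median 17294) and from 15136 to 18432 (median 15968), at -0.09. Each of these 4 genes had a limma adjusted p of 0.976, and the sign of Rps6 and Rps4x turned to 0.0339 and 0.0428 without vehicle 3 and vehicle 4.

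In the large subunit, Rpl5 and Rpl11 form a particle with the smallest of its ribosomal RNAs, and outside the ribosome that particle binds the p53 inhibitor Mdm2. Rpl11 ranged from 6881 to 10016 normalised counts in vehicle (median 7591) and from 6644 to 8141 in mimic glands (median 6915), with a log2 fold change of -0.18 (limma unadjusted p 0.0767, adjusted p 0.976, SE 0.09). Rpl5 ranged from 8556 to 13148 (median 10711) and from 8575 to 10790 (median 9136), with a log2 fold change of -0.16 (SE 0.10). Both overlapped between the groups, and in both vehicle 3 and vehicle 4 were the 2 highest libraries. Of the 13 measured genes of ribosomal protein surveillance, which include Mdm2, Trp53 and genes of ribosome rescue, 0 passed, 6 were negative and the median log2 fold change was 0.01. Trp53 itself was at -0.11, Eif2ak4, a kinase activated at stalled ribosomes, at 0.10 and the rescue ligase gene Ltn1 at 0.07.

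Rpl39 and Rpl35 encode proteins of the tunnel through which the new chain leaves, Rpl39 lining it and Rpl35 sitting at its mouth. Rpl39 ranged from 2368 to 3981 in vehicle glands (median 2864) and from 2390 to 3047 in mimic glands (median 2584), with a log2 fold change of -0.20 (SE 0.12) and the widest reach below 0 of any member. Rpl35 ranged from 1782 to 2794 (median 2173) and from 1687 to 2270 (median 1899), with a log2 fold change of -0.20 (limma unadjusted p 0.0811, SE 0.11). The lowest vehicle library, vehicle 2, lay within the range of the mimic glands for Rpl35 and just under it for Rpl39. Rpl31, which borders the tunnel mouth, ranged from 10510 to 16220 (median 13139) and from 11061 to 13958 (median 11678), at -0.14.

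Rplp0, Rplp1 and Rplp2 form the stalk that recruits elongation factors, and their values are given side by side, with no test between the 3 genes. Rplp0 ranged from 9466 to 13846 in vehicle (median 10793) and from 10069 to 11352 in mimic glands (median 10472), with a log2 fold change of -0.07 (SE 0.08). Rplp1 ranged from 2067 to 3756 (median 2540) and from 2214 to 2811 (median 2425), with a log2 fold change of -0.13 (SE 0.13), the largest standard error in the family. Rplp2 ranged from 3596 to 5283 (median 3981) and from 3678 to 4487 (median 4234), and at 0.01 (95% interval -0.18 to 0.20) it was the one member with a positive value. Rplp2 was high in vehicle 3 (5283) but not in vehicle 4 (4252), in contrast to most members. Without vehicle 3 and vehicle 4 the log2 fold changes of all 3 were positive, at 0.0367 for Rplp0, 0.0721 for Rplp1 and 0.1143 for Rplp2.

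Rpl3 and Rpl10 lie near the catalytic centre, and Rpl10 joins the subunit last, in the cytoplasm. Rpl3 ranged from 17781 to 24518 in vehicle (median 21502) and from 18662 to 23766 in mimic glands (median 20423), with a log2 fold change of -0.01 (95% interval -0.19 to 0.16) whose sign changed with the normalisation. Rpl10 ranged from 22648 to 31489 (median 27720) and from 23056 to 27597 (median 24386), at -0.12 (SE 0.08). Rpl22, which has a close paralog and is known from T cell development in mice, ranged from 3889 to 6173 (median 4926) and from 4250 to 5207 (median 4398), at -0.14 (SE 0.10). In all 3 genes the mimic range lay wholly inside the vehicle range.

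Levels differed among the members far more than between groups. Per kilobase of coding length (GENCODE M21, matched by symbol) the mean over 12 libraries had a median of 17723 normalised counts, 15347 in the large and 19501 in the small subunit. Rpl41, which encodes the shortest ribosomal protein with a coding length of 75 bases, stood at 333762 per kilobase, ahead of Rpl10 (40889), Rps27 (38994), Rpl37a (37227) and Rpl31 (33492). As normalised counts, Rpl41 ranged from 21009 to 31792 in vehicle (median 25883) and from 21777 to 25751 in mimic glands (median 24077), with a log2 fold change of -0.13. The lowest per kilobase were Rpl36 (4790), Rpl35 (5676), Rpl29 (5953), Rps16 (7476) and Rplp1 (7655). Reads also fall on untranslated bases, which weigh most in the shortest genes. Per kilobase of transcript Rpl41 was still first but at 57282, and the lowest was Rps20 at 2002. The transcript taken for Rps20 was the longest of any member, with 3706 bases for a coding length of 357. Per kilobase of coding length Rps20 stood at 20781, above the median. Between neighbours in the order per kilobase of coding length, such as Rps27 and Rpl37a, the gap was smaller than the spread over libraries. Not scaled by length, Rpl4 was the most abundant member and ranked 36 among all genes, 45 members were among the 500 most abundant, and Rpl36 held the lowest single value, 1238 in vehicle 2.

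Reads of near-identical copies can be exchanged with those of a member. The table listed 40 processed pseudogenes of 27 members by name, with 2.27% to 2.73% of the family's summed counts. The largest relative to their parent were Rps7-ps3 (54.8% of the level of Rps7), Rps13-ps1 (46.3%), Rps2-ps10 (33.9%) and Rpl34-ps1 (26.0%), so the levels of Rps7, Rps13, Rps2 and Rpl34 are uncertain to that degree. None of the 40 passed the test, 19 were negative and the median log2 fold change was 0.07. Rpl17-ps3 was at -0.88 (limma adjusted p 0.976), while Rpl17 was at -0.01.

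Once the joint level of each library was subtracted, little variation was left in most genes. The median standard deviation of a member over the 12 libraries was 0.179 on the log2 scale before and 0.061 after, 2.93 times less, and it went down in all 76. A gene that enters the joint level follows it in part by construction. The tightest were Rpl10a at 0.029, whose protein forms the stalk where spent tRNA leaves, Rpl13a at 0.032, which in human cells also serves a complex that silences inflammatory mRNAs, Rpl27 at 0.032 and Rpl36a at 0.033. Rpl10a ranged from 6160 to 8873 normalised counts in vehicle (median 7323) and from 6406 to 7718 in mimic glands (median 6792), and Rpl13a from 13126 to 20274 (median 15619) and from 13914 to 16546 (median 14622).

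In 8 members the remaining standard deviation was above 0.1, led by Rps16 (0.200), Rplp1 (0.153), Rpl28 (0.139) and Rplp2 (0.12). Rps16, whose protein reaches toward the tRNA in the decoding site, ranged from 2790 to 4005 in vehicle (median 3535) and from 2348 to 3424 in mimic glands (median 3127). Its highest library was vehicle 5 (4005) and its lowest mimic 5 (2348), neither of which stood out in the family. Rpl28, a protein that budding yeast lacks, ranged from 2901 to 4100 (median 3635) and from 3347 to 3555 (median 3432). Rpl28 was highest in vehicle 6 (4100) and stood at 3530 in vehicle 3, where most members peaked.

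Members with a short coding sequence varied more from library to library. Over the 76 genes the coding length correlated with the standard deviation over libraries (Pearson r -0.48, Spearman rho -0.49) and with the mean level of vehicle 3 and vehicle 4 above the gene's own mean (r -0.51, rho -0.56). These are descriptions across genes that share the same 12 libraries. The 25 shortest members (75 to 399 bases) had a median of 0.334 log2 units above their mean in that pair of libraries, the 25 next (405 to 552 bases) 0.297 and the 26 longest (564 to 1257 bases) 0.254. The highest were Rplp1 (0.48), Rpl39 (0.47), Rps29 (0.44), Rpl38 (0.44) and Rps21 (0.43), and the lowest were Rpl28 (0.11) and Rpl8 (0.12). The log2 fold change followed the same order, with medians of -0.136, -0.117 and -0.084 from short to long. What remained after the joint level did not follow length (r -0.08). The 34 genes with a pyrimidine tract had a median log2 fold change of -0.12 and the 22 without one -0.117.

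**Figure D4:**
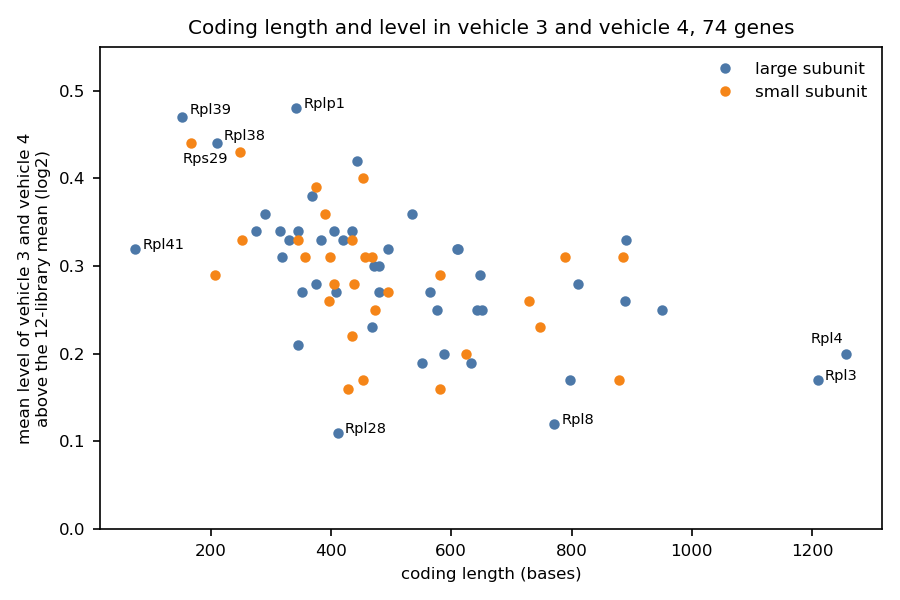
Coding length in bases (horizontal axis) against the mean level of vehicle 3 and vehicle 4 above the gene's own 12-library mean (log2, vertical axis), 1 point for each of 74 genes, large subunit in blue and small in orange. Points fall from 0.48 (Rplp1) and 0.47 (Rpl39) among short genes to 0.20 or less for the longest, Rpl4 and Rpl3, and Rpl28 (0.11) lies lowest (r -0.51 over all 76 genes).

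Genes that work with the ribosome but lie outside the name rule followed it in part. The 4 remaining ribosome genes, among them Fau, whose protein is cut from a ubiquitin-like fusion, Rack1, a scaffold on the small subunit, and Rps3a1, had a median log2 fold change of -0.10, all 4 negative and none past the test. Their mean level stood at 0.21 in vehicle 3, 0.29 in vehicle 4 and -0.21 in vehicle 2, close to the family itself. Of 10 named paralogs 5 were measured, all negative with a median of -0.10, among them Rpl7l1, Rpl36al and Rpl22l1. The 16 translation factors and related genes whose mRNAs also carry a TOP motif spanned less, from -0.10 to 0.13 over the libraries. Of these, 14 were negative, with a median of -0.03 and none past the test, among them Eif3f and Eif3e at -0.14 and Eef1g at -0.07. These genes did not all move alike between libraries. Eif3e stood at 2802 normalised counts in vehicle 2 and at 4202 and 4172 in vehicle 3 and vehicle 4, as the family did. Eif3f was highest in vehicle 2 (2372) and stood at 2223 and 1846 in vehicle 3 and vehicle 4. The mean over the list thus joins genes that differ in direction. Of the 8 listed RNAs of the TOP class that host small nucleolar RNAs, none was among the genes tested.

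Genes that build or control ribosomes had median log2 fold changes near 0. The 41 ribosome biogenesis genes had 22 negative values, a median log2 fold change of -0.02 and none past the test, and their mean level was 0.01 in vehicle 3, 0.02 in vehicle 4 and 0.19 in mimic 1, their highest library. The lowest p among them belonged to the small nucleolar particle genes Gar1 (0.32, limma unadjusted p 0.0437) and Nhp2 (-0.23) and to Wdr12 (-0.21), needed for the large subunit, each with a limma adjusted p of 0.976. The 20 regulators of ribosomal protein synthesis, among them Mtor, Larp1, Myc and Yy1, had 9 negative values and a median of 0.01. Eif4e, the cap-binding factor, was at 0.34, Gabpa, an ETS factor, at 0.18 and Rps6kb1, an S6 kinase gene, at -0.10, none past the test.

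Nuclear genes of the respiratory chain were high in vehicle 3 and vehicle 4 and low in vehicle 2, as the family was. The 25 genes of that list had 24 negative log2 fold changes, a median of -0.08 and none past the test, with Ndufa1 at -0.25, Cox5b at -0.14 and Ndufb7 at -0.10. Their mean level stood at 0.24 in vehicle 3, 0.31 in vehicle 4 and -0.19 in vehicle 2. It was -0.2 in mimic 3 and -0.01 in mimic 4, where the family stood at -0.147 and -0.134. The 77 mitochondrial ribosomal protein genes, which belong to a separate ribosome, had 51 negative values, a median of -0.03 and mean levels of 0.19 and 0.10 in vehicle 3 and vehicle 4. Of these, Mrpl37 was at 0.16, Mrpl21 at -0.29 and Mrpl33 at -0.19. The 12 mitochondrially encoded genes had a median of 0.01 with 6 negative.

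Markers of other cells stood above their mean in vehicle 3, but only some of them did in vehicle 4. No marker gene passed the test between groups. All 6 erythrocyte markers, globin genes among them, were detected and none was at 0 in any library. Their mean level stood at 1.19 in vehicle 3, 0.76 in vehicle 4 and -0.69 in vehicle 2. In the other libraries it lay between -0.65 and 0.18, with -0.53 in vehicle 6, where the family stood at 0.068. These 6 markers held 0.037% to 0.157% of the counts in vehicle and 0.0492% to 0.0841% in mimic glands. All 6 had negative log2 fold changes, none past the test. The 8 markers of the posterior lobe stood at 1.31 in vehicle 3 and 0.8 in vehicle 5. They stood at -0.95 in vehicle 4, -1.65 in vehicle 1 and -1.63 in vehicle 6. In the mimic glands they lay between 0.16 and 0.7, a narrower spread than among the vehicle glands. All 8 had positive log2 fold changes (median 0.5), none past the test. The 8 immune markers stood at 0.62 in vehicle 3 and 0.09 in vehicle 4. Markers of endothelium, fibroblasts, pericytes and smooth muscle, and folliculo-stellate or stem cells stood between 0.25 and 0.63 in vehicle 3 and between -0.22 and 0.18 in vehicle 4. Fibroblast markers were highest in mimic 1 (0.72), and those of pericytes and smooth muscle stood at 0.26 in both vehicle 3 and mimic 2. Mitochondrially encoded RNA took 1.17% and 1.19% of these 2 libraries and between 0.916% and 1.14% of the others, while the mean level of these 12 genes was -0.08 in vehicle 3, 0.25 in vehicle 4 and highest in mimic 4, at 0.28. The part of these markers in the level of the ribosomal protein genes was not tested.

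**Figure D5:**
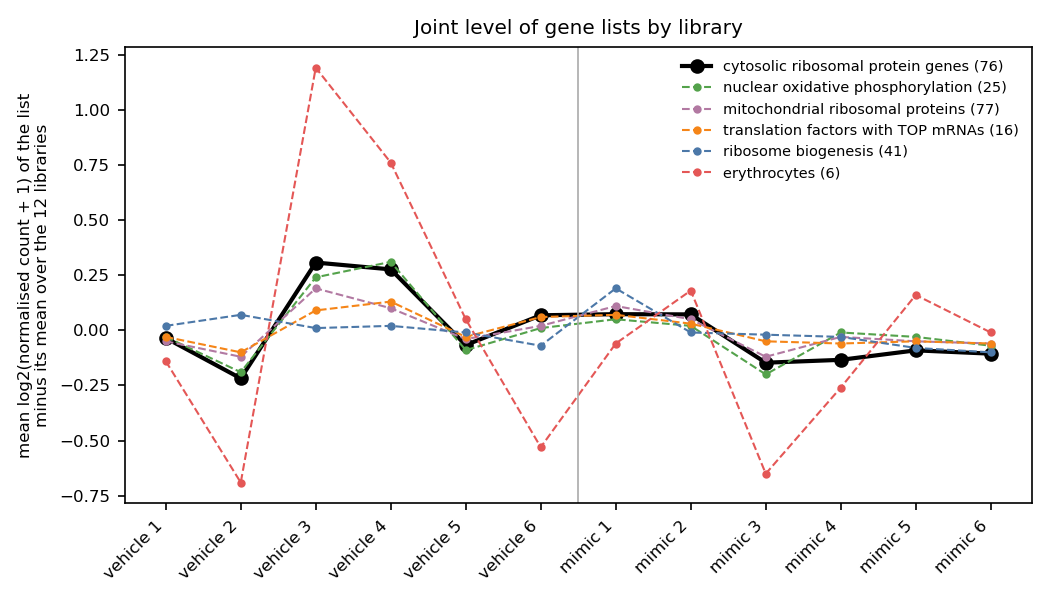
Mean log2(normalised count + 1) of each gene list minus its mean over the 12 libraries (vertical axis) in each library (horizontal axis), with the number of genes of each list in the legend. The family (black) stands at 0.307 and 0.276 in vehicle 3 and vehicle 4, where nuclear respiratory chain genes (0.24 and 0.31) and erythrocyte markers (1.19 and 0.76) are also high and ribosome biogenesis genes (0.01 and 0.02) are not.

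Outside the family, the genes whose level followed its joint level most closely over the 12 libraries were sought among 15200 genes with a mean of at least 50 normalised counts. Of these, 153 (1.01%) had a Pearson r above 0.9. The closest was Rps3a1 (r 0.987), a small-subunit protein gene that the name rule misses. Rps3a1 ranged from 11803 in vehicle 2 to 18234 in vehicle 4 and 17970 in vehicle 3, and in mimic glands from 12710 to 15528. Next came the complex I gene Ndufa6 (0.979), the endoplasmic reticulum selenoprotein gene Selenof (0.977), the ATP synthase gene Atp5f1c (0.977) and the zinc-finger gene Zfp148 (0.972). The protein channel gene Sec61g (0.969), the initiation factor gene Eif3e (0.968), Imp3 of the pre-rRNA processing complex (0.963), the ADP/ATP carrier gene Slc25a4 (0.962) and the cyclophilin gene Ppia (0.960) completed the 10. In the 10 libraries without vehicle 3 and vehicle 4 their r lay between 0.884 and 0.965. These are descriptions over libraries, and genes chosen for their r give no test of it.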

How the data were processed

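RNA of 12 pituitary glands was measured in stranded libraries made after rRNA depletion (per the labels' protocols). The submitters' processing notes list Trimmomatic 0.39, kallisto 0.50.1, DESeq2 1.48.2, FastQC 0.12.1, MultiQC 1.28 and the build GRCm39. The authors deposited a signal per gene, normalised read counts in 1 table of 12 columns, all of them used. Each value was a whole multiple of the inverse of a size factor (0.817 to 1.17): dividing by that step gave whole numbers for 100% of values within 0.001, called recovered reads. A row with no gene name (0.0359% to 0.0567% of reads) was left out. Between the 2 most similar libraries the chi-square per degree of freedom was 19.5, well above counting error alone. How kallisto divides reads among near-identical genes can affect the levels of members with pseudogenes.

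Fold changes came from limma 3.58.1 in R 4.3.3 on log2(normalised count + 1), without covariates, for 18390 genes. edgeR 4.0.16 and DESeq2 1.42.0 on recovered reads were alternatives, beside other pseudocounts (0.5, 5), no filter, a minimum of 50, TMM, quantile normalisation, library weights, a replicate block and leaving out libraries. Removing vehicle 3 and vehicle 4 together was chosen after the data were seen. Tested on simulated counts of this comparison (18390 genes), limma recovered 8%, 66%, 98% and 100% of genes changed 1.2, 1.5, 2 and 3-fold. Of its calls 4.9% were false. Each gene was simulated independently, and the changed genes had a mean of at least 50. The members vary together, so these rates do not describe the family. Coding and transcript lengths and 3′ UTRs came from GENCODE M21 on GRCm38, matched by symbol: 1 basic transcript per gene by APPRIS rank, then longest coding sequence, then shortest transcript. No coordinates were converted between builds.

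The members and the gene lists were chosen with earlier results of these data known. The genes named are the members of smallest p in each direction (6 lower, 1 higher), the 5 highest and 5 lowest per kilobase, the 4 most and 4 least variable after the joint level, 12 fixed members, the 3 genes of smallest p in each list and the 10 genes closest to the joint level. Marker genes of other cells are given in ranges. Rpl4, Rpl8, Rpl17, Rpl38, Rps20, Rps29 and the pseudogenes and their parents were named for a value after it was seen. Some genes that the rule chose are not reported here by name and are not drawn in the plots, while counts, medians and ranges cover all 76.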

Additional observations from a re-analysis of the deposited data

Results flagged for a closer look

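Of 62 group values tested for a sample far from the others, 1 stood apart, where chance at 1 in 20 gives about 3.1. Rpl31 stood at 13958 normalised counts in mimic 1, while the other 5 mimic libraries lay between 11061 and 12032. Most members were above their own mean in mimic 1 (62 of 76).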

How the results depend on the processing

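No member was called under any of the 23 other settings run on the members, and the smallest limma, edgeR or DESeq2 adjusted p of a named member was 0.752. The median log2 fold change of the members was -0.094 after quantile normalisation, -0.082 with library weights, -0.127 with edgeR and -0.128 with DESeq2, and -0.114 when the members of lowest mean were left out. Leaving out each library in turn gave -0.172 to -0.063 for all members, -0.173 to -0.06 for the large and -0.17 to -0.068 for the small subunit, -0.233 to -0.1 percentage points for the joint share and 0.006 to 0.014 for the large minus the small subunit. Without vehicle 3 and vehicle 4 together the medians were 0.003, 0.008 and -0.002. That pair was picked for its high level in these genes, so its removal raises the medians by construction and cannot test the shared sign. Of 667 values of the 29 named members under these settings, 638 kept their sign. The sign turned without vehicle 3 and vehicle 4 together for Rpl10a (0.0187), Rpl13a (0.0123), Rpl27 (0.0416), Rpl28 (0.0095), Rpl29 (0.0796), Rpl3 (0.0709), Rpl36a (0.0032), Rpl37a (0.032), Rplp0 (0.0367), Rplp1 (0.0721), Rps4x (0.0428) and Rps6 (0.0339). It turned for Rpl3 after quantile normalisation (0.0318) and for Rplp2 with edgeR (-4.5e-06) and DESeq2 (-0.00027). With single libraries left out it turned for Rpl28 (-0.0951 to 0.0046), Rpl29 (-0.1052 to 0.0128), Rpl3 (-0.0601 to 0.0326) and Rplp2 (-0.0283 to 0.0826). The cause was not tested.

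With the replicate number as a block the median was -0.118 and 0 members were called. Same-numbered glands of the 2 groups correlated between -0.179 and 0.14 in their deviations, and 2 of 12 libraries correlated best with their own number. These values showed no pairing by number. They cannot exclude a shared litter or batch, which the labels do not give. The lowest value of any member in any library was 1238 normalised counts, so counting error was small beside the spread between glands. In the simulation, which drew each gene independently, 8% of genes changed 1.2-fold were recovered. That is not a rate for this family, whose genes vary together.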
